A study of Mus musculus with 2 samples.

Results

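The Id, inhibitory Smad and TGF-beta feedback genes are 9 genes chosen by symbol: Id1, Id2 and Id3, which are classic targets of bone morphogenetic protein (BMP) signals, and Smad6, Smad7, Skil, Ski, Tgif1 and Pmepa1, which encode inhibitors of the BMP and TGF-beta pathways. All 9 were present, by gene symbol, among the 15239 genes of the deposited table. The study sequenced messenger RNA of normal mouse mammary basal cells, the outer and largely contractile cells of the gland's ducts and alveoli, in 2 libraries. Cells of the Scramble control library carried a scrambled short hairpin RNA, and cells of the Cdk14-sh library a hairpin against Cdk14, a cyclin-dependent kinase that acts on the Wnt coreceptor. Strain, age, vector and number of animals are not given in the labels used here. The labels also mention MDA-MB-231, a human breast cancer line, in the design and retinas in the extraction protocol. The table lists mouse Ensembl genes, which does not by itself separate mouse mammary cells from mouse retina. The sample labels, which name mammary basal cells, were followed.

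In this signalling system, ligands bind paired type I and type II receptor kinases, which phosphorylate receptor-activated Smads. These join Smad4 and enter the nucleus. BMP receptors act mainly through Smad1, Smad5 and Smad9, and TGF-beta and activin receptors through Smad2 and Smad3. Id proteins are helix-loop-helix proteins without a DNA-binding region that hold E proteins away from DNA and restrain differentiation. The other 6 genes damp the signal at successive levels, from the receptor (Smad6, Smad7, Pmepa1) to the chromatin (Ski, Skil, Tgif1), and several of them are induced by the signal that they restrain.

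With 1 library in each group, differences cannot be set against replicate spread; nothing was tested and p-values are absent. Values are FPKM, fragments scaled to gene length and to the library's total. Summed over all 15239 genes they came to 379824 in Cdk14-sh and 362738 in Scramble control, so comparison between libraries is approximate. Comparison between genes depends on the exonic length used. The values corresponded to 5093462 fragments in Scramble control and 5088593 in Cdk14-sh. Parentheses hold 95% intervals that cover counting error alone and set library against library, not condition against condition. The hairpin's target Cdk14 was at 0.713 FPKM in Cdk14-sh against 2.06 FPKM in Scramble control, 34.5% of the control level (25.7 to 45.5). The basal keratin genes Krt5 (242 FPKM against 129) and Krt14 (994 against 1199) and the myoepithelial actin gene Acta2 (696 against 1095) were abundant in both libraries, while 3 of 10 retina markers were listed.

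The promoters of Id2, Id3, Smad6 and Tgif1 are shown. Id2 and Id3 are the Id pair that differed least between the libraries, and Tgif1 is the member with the lowest ratio. The Smad6 window was chosen because it holds a Smad palindrome at its start site. The Smad7 promoter was not searched, so whether the palindrome sets Smad6 apart from Smad7 was not tested. Each window holds 250 bases before and 50 bases after the start site and is written 5′ to 3′ on the gene's strand, from RefSeq (GRCm38.p6). Capitals mark GTCT or its reverse complement AGAC, the core that Smad3 and Smad4 bind, and GGCGCC, a GC-rich site of BMP-responsive Smads. For Id2 the window is chr12:25096043-25096342 (minus strand), for Id3 chr4:136143572-136143871 (plus strand), for Smad6 chr9:64022010-64022309 (minus strand) and for Tgif1 chr17:70853483-70853782 (minus strand, the outermost of 5 start sites).
Id2: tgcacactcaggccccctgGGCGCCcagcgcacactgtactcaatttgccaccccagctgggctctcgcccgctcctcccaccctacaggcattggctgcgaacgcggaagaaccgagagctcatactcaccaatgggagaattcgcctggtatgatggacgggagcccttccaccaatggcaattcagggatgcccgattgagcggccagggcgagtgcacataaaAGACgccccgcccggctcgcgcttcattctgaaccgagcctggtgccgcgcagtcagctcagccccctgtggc
Id3: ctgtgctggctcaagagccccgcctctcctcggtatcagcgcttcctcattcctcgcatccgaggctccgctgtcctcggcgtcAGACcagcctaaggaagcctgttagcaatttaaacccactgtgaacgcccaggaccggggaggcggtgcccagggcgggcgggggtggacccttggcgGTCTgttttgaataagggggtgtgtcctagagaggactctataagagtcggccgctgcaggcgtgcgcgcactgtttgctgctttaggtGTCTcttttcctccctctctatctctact
Smad6: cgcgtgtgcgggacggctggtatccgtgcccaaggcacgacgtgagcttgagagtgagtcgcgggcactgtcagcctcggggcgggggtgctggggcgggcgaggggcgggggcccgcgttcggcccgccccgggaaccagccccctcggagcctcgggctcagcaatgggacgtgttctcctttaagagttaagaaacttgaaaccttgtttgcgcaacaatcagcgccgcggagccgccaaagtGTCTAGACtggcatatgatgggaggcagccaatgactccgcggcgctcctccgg
Tgif1: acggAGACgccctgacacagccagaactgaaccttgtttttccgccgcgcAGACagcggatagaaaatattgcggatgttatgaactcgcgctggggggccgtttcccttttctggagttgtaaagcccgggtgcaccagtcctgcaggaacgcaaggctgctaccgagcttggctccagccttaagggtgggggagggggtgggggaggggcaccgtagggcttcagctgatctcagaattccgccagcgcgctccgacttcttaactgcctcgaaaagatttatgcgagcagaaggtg

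Across 9 windows of 5 members (Id2, Id3, Smad6, Ski and Tgif1), both strands were searched for 5 motifs. Smad7 was left out of this search, and no promoter was available for Id1, Skil and Pmepa1. The counts below therefore say nothing of Smad7, Id1, Skil and Pmepa1. The palindrome GTCTAGAC, in which GTCT and AGAC abut, was found in 1 window, that of Smad6, where it begins at position -4 from the start site (the start being position 1). It is held by 0.213% of the 32851 promoter windows in the RefSeq table. GGCGCC was found in 2 windows, at position -231 in Id2 and at -220 in Ski, against 11.9% of all windows. The 4-base core GTCT was found in 7 of the 9 windows and in 88.0% of all windows, so its presence separates few genes. CAGACA, an extended Smad element that contains AGAC, was found in 2 windows, both of Tgif1, and in 21.0% of all windows. TGTCA, the core that Tgif proteins recognise, was found in 5 windows, 4 of them of Tgif1, and in 45.4% of all windows. A match is a description of the letters and not a bound site.

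Of the 9 members, 8 were lower in Cdk14-sh and Id3 alone was higher. Their counting intervals excluded equality for 7, all lower, and included it for Id3 and Smad6. Among measured genes with an exonic length, 33.2% were lower and 35.9% higher by the same criterion, so an interval without equality was common in this pair of libraries. Such intervals narrow as fragments increase, and most members are abundant. No share was computed for abundant genes alone, so the 2 counts are not directly comparable. On the scale of log2(FPKM + 1), which understates differences of low genes, 1 member (Tgif1) was at least 2-fold lower and none was at least 2-fold higher. Measured genes here are the 12830 whose mean over both libraries reached 1 FPKM; 13.5% of them were lower by that limit and 14.2% higher. The count of members past 2-fold was thus near the background. At least 1.5-fold lower were 3 members (Id1, Smad7 and Tgif1), where the background was 24.5%. Abundant genes scattered less: of the 3287 genes whose mean reached 20 FPKM, 16.6% passed the 1.5-fold limit and 7.70% the 2-fold limit in the lower direction. That range held 8 members, all but Smad6.

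The Id genes did not move as a block. Id1 (ENSMUSG00000042745, chromosome 2 from 152736251 to 152737410, plus strand, GRCm38), was at 37.3 FPKM in Cdk14-sh and 69.7 FPKM in Scramble control, from 220 and 412 fragments. That is 1.87-fold lower (1.58 to 2.21). Id1 is the Id gene used most often as a readout of BMP signalling. Id2 (ENSMUSG00000020644, chromosome 12 from 25093799 to 25097140), the most abundant of the 9 genes in both libraries, was at 339 FPKM against 369 FPKM, from 4208 and 4586 fragments. The difference was 1.09-fold (1.04 to 1.14), beyond counting error and small. Id3 (ENSMUSG00000007872, chromosome 4 from 136143497 to 136145755) was at 79.6 FPKM against 73.4 FPKM, 1.08-fold higher with an interval of 0.974 to 1.20 that includes equality. The counting interval of the Id1 fold lay apart from those of Id2 and Id3.

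The levels of Id1 and Id3 were close in Scramble control, at a ratio of 0.950 in FPKM, and the ratio was 0.469 in Cdk14-sh. The Id1 to Id3 ratio in Cdk14-sh was 0.494 of that in the control (0.404 to 0.602), and the Id1 to Id2 ratio was 0.582 of it (0.489 to 0.691). Id4, the remaining gene of the family and no member of the list, was at 31.1 FPKM against 32.3 FPKM, a fold of 0.962 (0.859 to 1.08); 4.44% of its exonic bases overlap genes on the opposite strand. The family's summed level was 487 FPKM against 545 FPKM. Id1 made up 7.65% of this sum in Cdk14-sh and 12.8% in Scramble control, Id2 69.6% and 67.8%, and Id3 16.3% and 13.5%. Id2 was thus most of the Id level in both libraries, and the composition differed chiefly in Id1. The genes of the E proteins, the partners that Id proteins sequester, had lower FPKM. Tcf3 was at 14.5 FPKM against 10.6, Tcf4 at 5.49 against 4.52 and Tcf12 at 5.25 against 7.61. FPKM divides by exonic length, which is 4039, 27382 and 15529 bases for these genes and 1160 for Id1. Their order against the Id genes thus rests in part on that length. Tcf3 and Tcf4 were higher, with folds of 1.36 (1.14 to 1.63) and 1.21 (1.09 to 1.35), and Tcf12 was 1.45-fold lower (1.28 to 1.65).

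**Figure D1:**
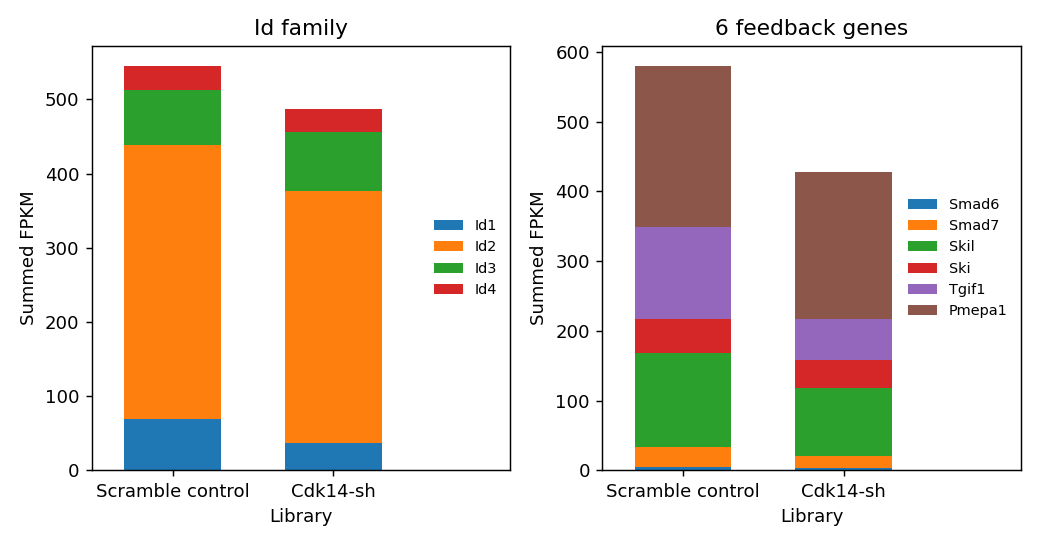
Stacked bars give the summed FPKM of Id1 to Id4 (left) and of the 6 feedback genes (right) in the 1 library of each group, coloured by gene, with no error bars. The Id sum is 487 FPKM in Cdk14-sh against 545 FPKM in Scramble control, with Id2 the widest band in both, and the feedback sum is 428 FPKM against 580 FPKM.

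Endothelial cells also express Id1, Id3, Smad6 and Smad7, and their markers differed between the libraries. Of 14 endothelial markers, 13 were listed and 12 measured, of which 10 passed the 2-fold limit, all lower in Cdk14-sh. Their summed level was 60.8 FPKM against 282 FPKM, 21.6% of the control. Plvap, a protein of capillary diaphragms, was at 3.56 FPKM against 83.0, the junction gene Pecam1 at 1.96 against 16.9 and the endothelial cadherin gene Cdh5 at 1.82 against 12.8. In RNA of bulk samples, fewer cells of a type and less RNA per cell cannot be told apart. Pericyte markers summed to 60.0 FPKM against 127 (5 of 8 listed), with a median log2 ratio of -1.02 over 4 measured. Most of that sum was Rgs5 (54.3 FPKM against 112). Of the measured pericyte markers 3 were below 0 and 1 above, Des, at 2.41 FPKM against 0.0523. Fibroblast markers had no common direction: their sum was 112 FPKM against 296 (7 of 10 listed), but the median log2 ratio over 5 measured was 0.84. Gsn (43.8 FPKM against 185) and Dcn (41.2 against 104) were lower, and Col3a1 (8.77 against 1.18), Fbln1 (10.2 against 1.48) and Col1a1 (7.79 against 3.92) higher. Immune markers summed to 388 FPKM against 108 (7 of 11 listed), with a median of 1.59 over 6 measured. Most of that sum came from Cd74 (175 FPKM against 49.0), H2-Ab1 (125 against 23.6) and H2-Aa (50.2 against 5.45). Csf1r (4.23 against 1.04) was also higher, and Cd68 (32.0 against 25.8) slightly so. Coro1a (1.06 against 2.61) and the pan-leukocyte gene Ptprc (0.247 against 0.482) were lower. Within the epithelium, basal markers summed to 3103 FPKM against 4414 (median log2 ratio -0.47 over 12 measured) and luminal markers to 823 against 1443 (-0.35 over 7 measured). Neither list had a common direction. Of the basal markers 3 were above 0, among them Trp63 (23.9 FPKM against 8.42), and 9 below, among them Cnn1 (107 against 359). Of the luminal markers 2 were above 0, among them Krt19 (42.9 against 20.5), and 5 below, among them Ltf (0.513 against 95.9). Krt8 (223 against 456) and Krt18 (106 against 382) were also lower. No gene of the table is listed at 0, so a marker without a row cannot be read as absent. The part of these other cell types in the values of the 9 genes was not tested.

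Both inhibitory Smads had lower values in Cdk14-sh, at very different depths. Smad7 (ENSMUSG00000025880, chromosome 18 from 75367529 to 75395935), which recruits ubiquitin ligases to the TGF-beta receptor and blocks both pathways, was at 16.3 FPKM in Cdk14-sh and 28.6 FPKM in Scramble control, from 376 and 658 fragments. The difference was 1.75-fold (1.54 to 1.99). Smad6 (ENSMUSG00000036867, chromosome 9 from 63953076 to 64022059), which acts preferentially on BMP signals and whose promoter window holds the palindrome above, was at 3.62 FPKM against 4.66 FPKM, from only 59 and 76 fragments. Its fold of 0.777 had an interval of 0.543 to 1.11, so a difference in Smad6 was not detectable at this depth. The Smad7 to Smad6 ratio was 4.52 in Cdk14-sh and 6.14 in Scramble control, and the change in that ratio, 0.736 (0.504 to 1.08), was within counting error. Smad7 thus made up most of the inhibitory Smad RNA in both libraries, 81.9% and 86.0%.

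The Ski family corepressors bind Smad complexes on DNA and bring in histone deacetylases. Skil, also called SnoN (ENSMUSG00000027660, chromosome 3 from 31095058 to 31122577), is itself a TGF-beta target and was at 97.3 FPKM against 135 FPKM, from 4801 and 6680.5 fragments. It was 1.39-fold lower (1.34 to 1.44). Ski (ENSMUSG00000029050, chromosome 4 from 155154075 to 155222592) was at 40.9 FPKM against 48.1 FPKM, from 1157 and 1364 fragments, and was 1.18-fold lower (1.09 to 1.27). Skil exceeded Ski by 2.38 times in Cdk14-sh and by 2.81 times in Scramble control, and the first of these ratios was 0.847 of the second (0.776 to 0.925). The inducible member of the pair was thus lower by more than Ski, beyond counting error.

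Tgif1 had the lowest ratio of the 9 genes. It encodes a homeodomain corepressor that binds Smad2 and Smad3 (ENSMUSG00000047407, chromosome 17 from 70844205 to 70853546, minus strand). Its level was 58.6 FPKM in Cdk14-sh and 132 FPKM in Scramble control, from 1677 and 3793 fragments, and it was 2.26-fold lower (2.13 to 2.39). Even so, 10.4% of measured genes had a lower log2 ratio. That background includes many low genes, which scatter more. Among the 3287 abundant genes, those averaging 20 FPKM or more, 7.70% were at least 2-fold lower, Tgif1 included. The log2 ratios of these abundant genes had a lower quartile of -0.35 and an SD of 0.81, beside -1.16 for Tgif1. Tgif1 was not ranked among them alone. Its relative Tgif2 was at 10.1 FPKM against 7.58 FPKM, 1.33-fold higher (1.06 to 1.65), with 61.6% of its exonic bases overlapped by genes on the opposite strand. The use of strand in counting is not given in the labels, so the Tgif2 value is uncertain. The ratio of Tgif1 to Skil was 0.978 in Scramble control and 0.602 in Cdk14-sh, and that of Tgif1 to Pmepa1 was 0.574 and 0.278.

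Pmepa1, also called TMEPAI, is a membrane protein that binds receptor-activated Smads and is strongly induced by TGF-beta. It lies on chromosome 2 from 173224458 to 173276533 (ENSMUSG00000038400) and was at 211 FPKM against 231 FPKM, from 5277 and 5772.5 fragments. The difference was 1.09-fold (1.05 to 1.13), about the same as that of Id2 and far smaller than that of Smad7. The Smad7 to Pmepa1 ratio in Cdk14-sh was 0.625 of that in Scramble control (0.546 to 0.715). Pmepa1 accounted for 49.3% of the summed feedback level in Cdk14-sh and 39.8% in Scramble control, and Tgif1 for 13.7% and 22.8%. None of the 9 genes shares annotated exonic bases with another gene, on either strand.

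**Figure D2:**
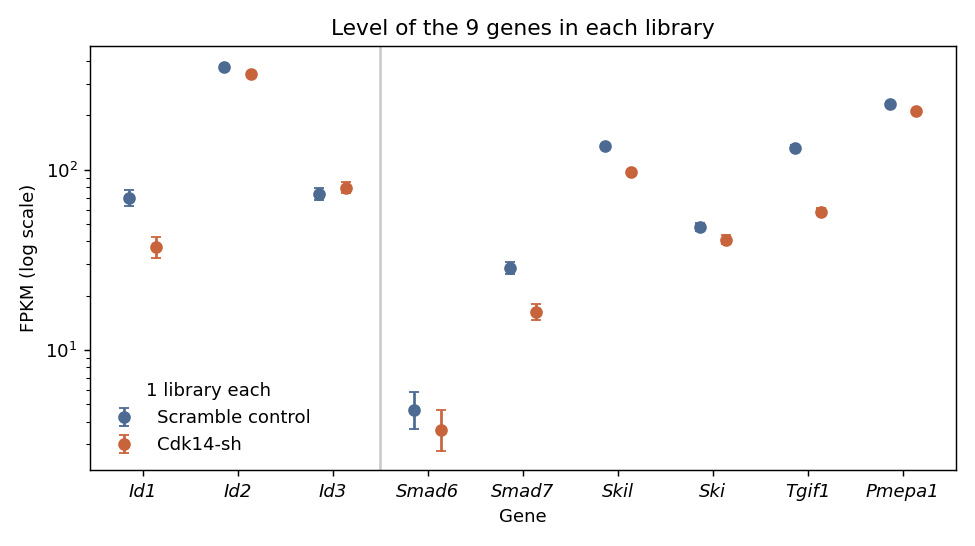
Points give the FPKM of each gene on a log scale in the 1 library of each group, with exact 95% Poisson intervals for counting error, and the grey line parts the Id genes from the feedback genes. Id1, Smad7 and Tgif1 stand furthest apart between libraries, at 37.3, 16.3 and 58.6 FPKM in Cdk14-sh against 69.7, 28.6 and 132 FPKM in Scramble control.

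In Scramble control the order of levels ran from Id2 and Pmepa1 through Skil, Tgif1, Id3, Id1, Ski and Smad7 to Smad6. Skil and Tgif1 (135 and 132 FPKM) could not be told apart by their counting intervals, nor could Id3 and Id1. In Cdk14-sh the order was Id2, Pmepa1, Skil, Id3, Tgif1, Ski, Id1, Smad7 and Smad6, and only Ski and Id1 (40.9 and 37.3 FPKM) had overlapping intervals. Tgif1 stood below Id3 in this order, and Id1 below Ski. The ends of the order, with Id2 and Pmepa1 at the top and the inhibitory Smads at the bottom, were shared by both libraries.

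Set as groups, the 3 Id genes had a median log2 ratio of -0.12 and the 6 feedback genes of -0.38, beside 0.02 over all measured genes. All 6 feedback genes and 2 of the 3 Id genes were below 0, where 48.6% of measured genes were. The ranges overlapped: Id1, at -0.89, was below 5 of the 6 feedback genes, and Pmepa1, at -0.13, was at the value of Id2. The 2 kinds of target were therefore not separated by their ratios. Log2 ratios of all measured genes had an SD of 1.02, and 15.8% of them were below Id1 and 18.8% below Smad7. For the abundant genes from 20 FPKM upward, which include Id1 and Smad7, the SD was 0.81 and the lower quartile -0.35. Id1 and Smad7 were not ranked among those genes alone.

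**Figure D3:**
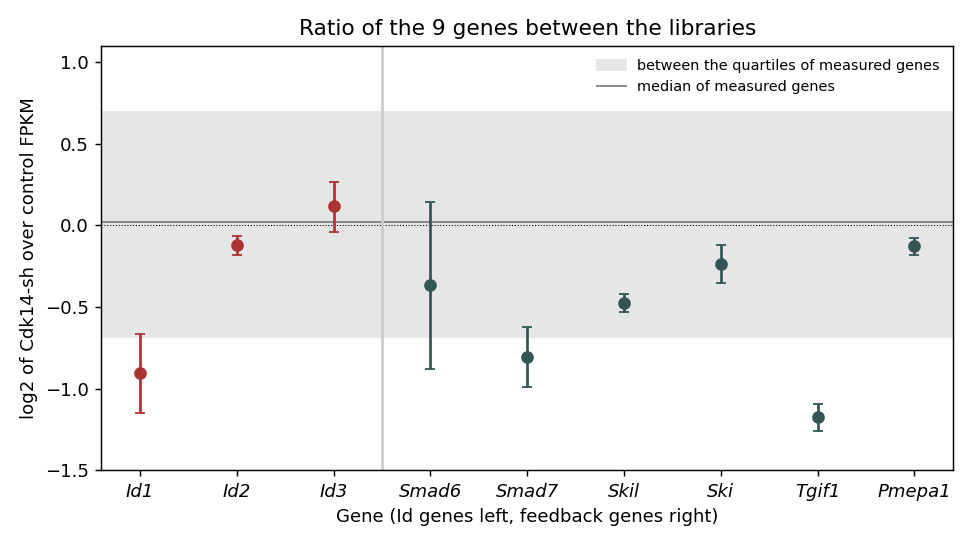
Points give the log2 ratio of Cdk14-sh to Scramble control FPKM, without a pseudocount, with 95% counting intervals, and the grey band spans the quartiles of the 12830 measured genes (-0.69 to 0.70). Id1, Smad7 and Tgif1 lie below the band and the other 6 genes within it.

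Genes upstream of the members differed in both directions. Of the Smads that carry the signal, 5 of 6 were measured, with a median log2 ratio of -0.13. Smad1, the BMP-responsive Smad, was at 13.8 FPKM in Cdk14-sh against 30.3 FPKM, 2.20-fold lower (1.97 to 2.47), while its relative Smad5 was at 7.84 against 7.40, a fold of 1.06 (0.899 to 1.25). The TGF-beta-responsive Smad2 was 7.64-fold higher (6.24 to 9.41), at 18.6 FPKM against 2.43, and Smad3 was at 14.2 against 15.6, a fold of 0.911 (0.795 to 1.05). The shared partner Smad4 was at 18.0 FPKM against 23.0, 1.28-fold lower (1.11 to 1.48).

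Among BMP ligands and receptors, 8 of 18 genes were measured, of which 2 exceeded the 2-fold limit upward and 1 downward. The type I receptor gene Acvr1 (ALK2) was 2.20-fold lower (1.97 to 2.48), at 17.9 FPKM against 39.5, and the type II receptor gene Bmpr2 1.44-fold lower (1.35 to 1.53), at 18.7 against 26.9. The coreceptor gene Rgmb was 2.51-fold higher (2.24 to 2.83), the type II receptor gene Acvr2a 2.38-fold higher (2.0 to 2.86) and the ligand gene Bmp7 1.69-fold higher (1.49 to 1.92), at 32.1 FPKM against 19.0. The 7 measured BMP antagonists (12 in the list) had a median of -0.20, with 4 below 0. Dand5 was at 1.49 FPKM against 4.74, 3.18-fold lower (1.62 to 6.65), while Nog (noggin) was at 4.75 FPKM against 1.51, a fold of 3.16 (1.66 to 6.42), and Sostdc1 at 38.7 against 19.8, a fold of 1.95 (1.63 to 2.35). Of 10 TGF-beta ligands and receptors, 6 were measured, and the type I receptor gene Tgfbr1 had the lowest ratio, 2.84-fold lower (2.56 to 3.15) at 14.9 FPKM against 42.4. The type II receptor gene Tgfbr2 was at 16.1 against 15.2, a fold of 1.06 (0.948 to 1.18), and the ligand gene Tgfb3 was 2.18-fold higher (1.82 to 2.61). In both receptor lists a type I receptor gene thus had the lowest ratio.

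Genes that act on the members' proteins were listed too. All 19 genes of Smad turnover and corepressor partners were measured, with a median of 0.22; 4 passed the 2-fold limit, all upward. The ubiquitin ligase gene Smurf1, a partner of Smad6 and Smad7, was 4.68-fold higher (3.31 to 6.76), at 5.80 FPKM against 1.24, and the related ligase gene Wwp1 3.32-fold higher (2.49 to 4.42). The deubiquitinase gene Usp11 was at 8.85 FPKM against 0.0830, or 213 fragments against 2, a ratio of 107 (29.2 to 886). The acetyltransferase gene Ep300 was 1.53-fold lower (1.26 to 1.84). Rnf111 (Arkadia), the ligase that degrades Ski, Skil and Smad7, was at 10.9 FPKM against 9.21, a fold of 1.18 (1.03 to 1.35); it is named here after its value was seen.

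Other targets of the same signals did not share one direction. Of 12 other BMP target genes, 9 were measured, with 5 past the 2-fold limit upward, 1 downward and a median of 1.15. The homeobox gene Msx1 was at 12.4 FPKM against 0.254, or 196 fragments against 4, a fold of 49.0 (18.9 to 182), and the Notch and BMP target Hey1 was 6.84-fold higher (4.44 to 11.0). Atoh8, a helix-loop-helix factor induced by BMP signals, was 2.88-fold lower (2.03 to 4.16), at 3.45 FPKM against 9.95, and the pseudoreceptor gene Bambi, an inhibitor of both pathways, was 1.82-fold lower (1.62 to 2.05), at 17.6 against 32.0. The median of this list was -0.05 when genes with a mean under 5 FPKM were left out, so it has no stable direction. Of 24 other TGF-beta target names, 23 were measured; 6 were past the 2-fold limit downward and 3 upward, with a median of -0.27. The stress gene Gadd45b was 4.09-fold lower (3.61 to 4.63), at 39.3 FPKM against 161, and the transcription factor gene Snai1 3.90-fold lower (2.65 to 5.91), at 4.0 against 15.6. At the other end, the matrix gene Fn1 was 8.53-fold higher (6.27 to 12.1), at 6.23 against 0.731.

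**Figure D4:**
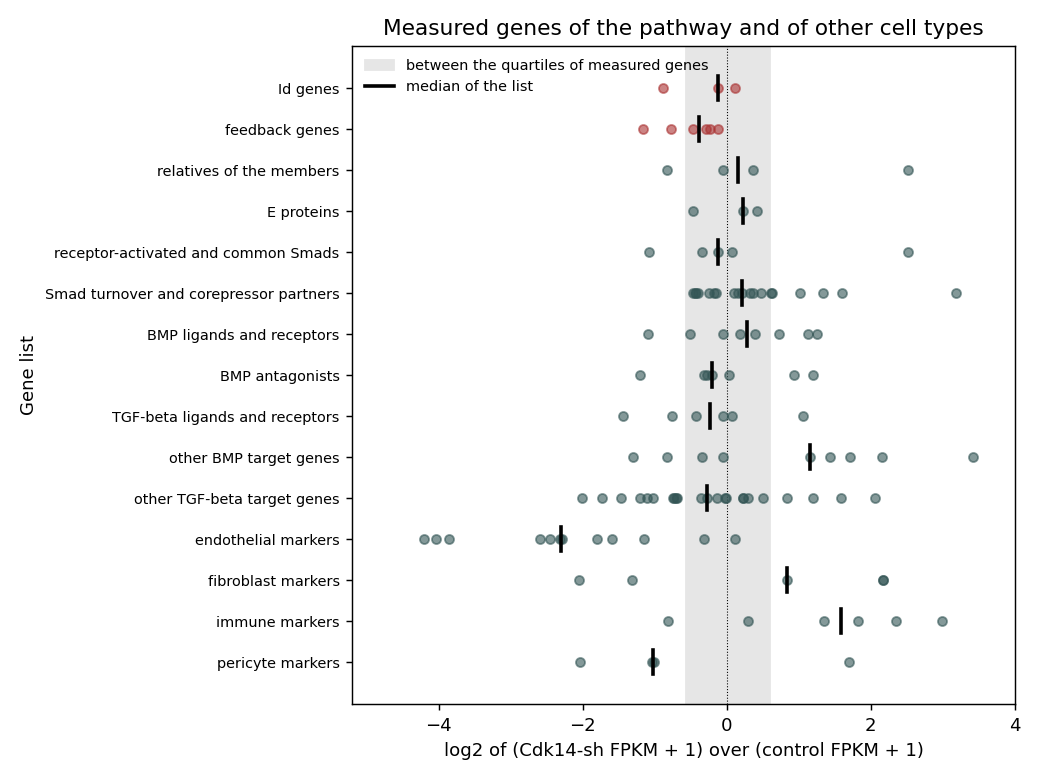
Each point is the log2 ratio (pseudocount 1) of 1 measured gene of a list, black bars give list medians, and the grey band spans the quartiles of the measured genes (-0.57 to 0.60). The Id and feedback genes (red) lie between -1.16 and 0.11, whereas endothelial markers have a median of -2.31 and immune markers of 1.59.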

How the data were processed

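The authors deposited 1 table of FPKM values with a column for each of 2 libraries. Column names shorten the titles, and each column was given the single title it matches. Bowtie 0.12.2, featureCounts and Subread 1.5.1 are listed, with builds mm8 and GRCm38 and no role for either, per the submitters' processing notes. The treatment of multiply mapped reads and of strand in counting is not given in the labels used here. Libraries were made with a stranded kit, per the labels' protocols.

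Fragments were recovered as FPKM times the union exonic length (GENCODE M21, GRCm38), divided by the commonest low product. For 79.1% of 15191 genes with a length, both values were multiples of 0.25 fragments (tolerance 0.005 fragments). The others, among them Id2, are approximate. Recovered fragments summed to 112% of each total; the cause was not tested. Fold intervals are exact binomial (Clopper-Pearson), level intervals exact Poisson and intervals of a ratio between genes Fisher's conditional exact, all at 95%; they hold only counting error, as reads lacking molecular identifiers are not independent molecules (Python 3.11.15, SciPy 1.17.1). The arithmetic was tested on simulated whole counts with the same lengths. That checks the calculation and does not cover fractional fragments or a wrong length.

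Folds are ratios of FPKM. Log2 ratios have a pseudocount of 1, and measured genes have a mean of at least 1 FPKM. Where rows shared a symbol, the row with the higher mean was taken. Named are Cdk14, the members, 8 fixed cell type markers and up to 3 highest and 3 lowest measured genes of each list and those said to be chosen afterwards. The members and lists were chosen with earlier results of these data known.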

Additional observations from a re-analysis of the deposited data

How the results depend on the processing

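Every member kept its direction under pseudocounts of 0.1 and 5 and under 3 scalings (median ratio 0, equal upper quartiles, TPM). Id3 ranged from 0.05 to 0.12 on the log2 scale, Id1 from -0.96 to -0.82, Smad7 from -0.86 to -0.65 and Tgif1 from -1.24 to -1.11. With TPM the log2 ratios of Id2 (-0.19), Pmepa1 (-0.19) and Skil (-0.54) moved by more than their counting error. The Id median was -0.19 with TPM and -0.30 as a mean; the feedback median ranged from -0.51 to -0.33. Members past the limit in the lower direction numbered 3 at 1.5-fold and 0 at 4-fold. The log2 ratio of Cdk14 was -1.41 with a pseudocount of 0.1 and -0.31 with 5, against -0.84.

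Genes higher and lower numbered 3239 and 3141 at 1.5-fold, 419 and 345 at 4-fold, 677 and 612 with a pseudocount of 5, 946 and 909 with a mean filter of 5 FPKM, and 278 and 253 with one of 20 FPKM, a filter chosen after seeing the data. Without a filter on low values the medians of TGF-beta ligands and receptors (0.013), luminal markers (0.17) and retina markers (5.5e-05) turned positive, and those of fibroblast markers and other BMP targets were 0.18 and 0.46. With the mean filter of 5 FPKM they were -0.24 for fibroblast markers, -0.055 for other BMP targets, 2.08 for immune markers and -1.54 for pericyte markers. With a pseudocount of 5 they were -1.22 for endothelial markers, 0.52 for fibroblast markers, 1.17 for immune markers and 0.43 for other BMP targets; with 0.1 the endothelial median was -2.90. The filters change which genes count; other causes were not tested. No paired analysis was possible because each group held 1 library, and for the same reason no library could be left out. Depth limits Smad6 most, at 59 and 76 fragments.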

Other observations

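Among values not described above, the repressor gene Dach1, which shares a domain with Ski and Skil and is named after its value was seen, was at 1.02 FPKM in Cdk14-sh against 0.0268 in Scramble control, or 38 fragments against 1 (interval of the ratio 6.43 to 1541), with a mean of 0.524 FPKM, under the 1 FPKM that measured genes reach. Ldlrad4, the closest relative of Pmepa1, was at 5.40 FPKM against 0.118, a fold of 45.7 (16.6 to 242); 52.1% of its exonic bases are overlapped by genes on the opposite strand, so the value is uncertain. The list drawn up as relatives of the members (7 of 9 with a row) also holds Bambi, a pseudoreceptor gene and no family relative of them. Bambi was at 54.9% of the control level and Ldlrad4 far above it. The list's median over 4 measured genes, Bambi among them, was 0.16.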
